A study of Mus musculus with 20 samples.

Results

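The 28 genes described here make cholesterol, move it between compartments and cells, and store it as cholesteryl ester. They were taken by name and role from the 54532 genes of the deposited count table. Earlier results of these data were known when they were chosen. By role, 8 encode enzymes that lead from acetyl-CoA to the prenyl diphosphates, 11 enzymes that lead from farnesyl diphosphate through squalene to cholesterol, 5 proteins of sterol transport and uptake, and 4 enzymes that form or cleave cholesteryl esters. Total RNA had been extracted from livers and kidneys of 5 male C57BL/6 mice labelled Lxrα-/- and of 5 male C57BL/6 mice labelled wild type, which gave 20 libraries in 4 groups of 5. Lxrα, the product of Nr1h3, is a nuclear receptor whose ligands are oxysterols. The allele, the age and the diet of the mice are not given in the sources used here, and no treatment is named. Titles number the labelled knockout mice 1 to 5 and the wild-type mice 1, 3, 4, 5 and 6. A liver and a kidney with the same genotype and number were taken to come from 1 mouse. The main fits held no term for the mouse.

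Levels are in CPM, counts scaled to a common effective library size, and total counts ran from 23421561 to 35376342 per library. A log2 fold change is that of the labelled knockout group over the wild-type group and comes with its standard error (SE). Adjusted p values are from edgeR's quasi-likelihood test after Benjamini-Hochberg adjustment over all genes tested, and calls were made at an adjusted p under 0.05. In each fit 27 of the 28 genes passed the filter on low counts. Npc1l1, the intestinal importer of dietary sterol, did not, with at most 8 counts per library in labelled knockout kidneys, 31 in wild-type kidneys, 4 in labelled knockout livers and 6 in wild-type livers.

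The targeted gene went against its label. Nr1h3 was higher in the libraries labelled knockout, by 0.76 in liver (SE 0.12, edgeR adjusted p = 0.00277) and by 1.27 in kidney (SE 0.16, edgeR adjusted p = 0.00209), so all directions below refer to the labels. Gene counts do not resolve exons, and these values alone do not identify the allele. Marker genes separated the tissues as labelled. Summed over 5 hepatocyte markers, labelled knockout livers held 47112 to 78757 CPM and wild-type livers 83472 to 111850 CPM, while no kidney held more than 665 CPM. Some libraries stood apart. Labelled knockout livers 4 and 5 lay at -19.5 and -33.7 on the second principal component, against 20.2 to 33.4 for labelled knockout livers 1 to 3. Mitochondrially encoded genes took 50.8% of the counts of wild-type kidney 3 and 7.21% of those of wild-type kidney 1, against 12.6% to 21.1% in the other kidneys. On the first principal component of the kidneys, wild-type kidney 6 lay at 28.2, within the 13.1 to 38.6 of labelled knockout kidneys. The other wild-type kidneys lay at -107 to -1.16, with wild-type kidney 3 the lowest.

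Cholesterol synthesis starts from acetyl-CoA, passes through mevalonate and the isoprenoids, and commits to sterols where squalene is made. Its genes are switched on together by the transcription factor SREBP-2, which the escort protein SCAP releases from the endoplasmic reticulum when sterols there run low and which INSIG proteins hold back when sterols are plentiful. SREBP-2 binds sterol response elements close to the start sites, usually with the help of NF-Y at CCAAT boxes and of Sp1 at GC boxes. The liver makes cholesterol for lipoproteins and bile, takes up lipoprotein cholesterol, frees it in lysosomes through LIPA, NPC2 and NPC1, and stores the surplus as ester.

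The start sites of 21 of the 28 genes were found in RefSeq (GRCm38.p6). No promoter window was available here for Fdps, Fdft1, Sqle, Stard4, Npc1, Scarb1 and Soat2, so the counts below leave them out. In the 250 bases before the start, on either strand, the NF-Y letters CCAAT were present in 20 of 21 genes (95.2%) and in 37.5% of the 27025 genes in the promoter table. The Sp1 letters GGGCGG were present in 15 of 21 (71.4%, against 35.4% of all genes), the E-box CACGTG in 3 of 21 (14.3%, against 6.86%), and the sterol response element letters TCACNCCAC in 1 of 21 (4.76%, against 1.22%). The LXR element (a direct repeat with 4 bases between its copies, searched on both strands) was in none of the 21 windows and in 0.0148% of all genes. A gene with several starts was counted where any of its windows held the letters, and all genes together had 32851 windows. Dhcr7 held CCAAT only in a window that begins at 143829964, inside the gene as counted (143823145 to 143848410). A match in these letters is a description of the window and not a bound site. The windows of 4 genes are shown, because Hmgcs1 holds the only sterol response element match, Msmo1 and Hsd17b7 gave the smallest adjusted p of the 28 genes in liver, and Acat2 is the gene of the 21 without CCAAT. Each runs 5′ to 3′ along the gene's strand, with capitals marking matches to CCAAT on either strand and to the sterol response element. No marked match overlaps another. RefSeq starts differ from the gene ends used for counting, so the windows of Msmo1, Hsd17b7 and Acat2 run into the genes as counted. For Msmo1 the counted gene begins at 64733792 on the minus strand, so most of its window lies inside it.
Hmgcs1, chr13:119690101-119690350, plus strand: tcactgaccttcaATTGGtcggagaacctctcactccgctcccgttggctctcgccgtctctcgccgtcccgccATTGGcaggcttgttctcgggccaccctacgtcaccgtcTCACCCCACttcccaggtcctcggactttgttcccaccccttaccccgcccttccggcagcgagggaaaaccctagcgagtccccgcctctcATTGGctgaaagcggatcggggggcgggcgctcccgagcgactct
Msmo1, chr8:64733579-64733828, minus strand: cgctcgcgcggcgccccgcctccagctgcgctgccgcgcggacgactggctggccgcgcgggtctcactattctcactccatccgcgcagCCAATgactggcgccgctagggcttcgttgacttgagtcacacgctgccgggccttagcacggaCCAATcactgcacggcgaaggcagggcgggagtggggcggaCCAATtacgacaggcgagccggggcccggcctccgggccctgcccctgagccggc
Hsd17b7, chr1:169969206-169969455, minus strand: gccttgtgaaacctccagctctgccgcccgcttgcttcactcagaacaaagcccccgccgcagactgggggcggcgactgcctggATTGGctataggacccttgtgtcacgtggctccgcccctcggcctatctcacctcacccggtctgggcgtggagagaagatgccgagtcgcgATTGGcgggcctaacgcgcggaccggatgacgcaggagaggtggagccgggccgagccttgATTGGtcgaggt
Acat2, chr17:12960726-12960975, minus strand: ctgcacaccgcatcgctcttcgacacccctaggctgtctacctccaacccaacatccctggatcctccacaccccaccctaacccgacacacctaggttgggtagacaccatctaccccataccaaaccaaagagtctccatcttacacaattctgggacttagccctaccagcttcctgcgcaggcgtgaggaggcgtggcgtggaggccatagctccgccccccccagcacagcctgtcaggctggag
The Hmgcs1 window holds 3 CCAAT boxes with the sterol response element match at -137, between the boxes at -176 and -45. Msmo1 and Hsd17b7 hold 3 CCAAT boxes each.

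In liver, the synthesis genes that were called were higher in labelled knockout mice, and the called genes of lysosomal release and esterification were lower. Of the 28 genes, 9 were higher in labelled knockout livers (Hmgcs1, Mvk, Mvd, Fdps, Fdft1, Sqle, Cyp51, Msmo1 and Hsd17b7), 3 were lower (Npc2, Soat1 and Lipa), 15 were not called and 1 was not tested. All 9 that rose encode synthesis enzymes and all 3 that fell do not. These 12 are 44.4% of the 27 tested, whereas 6.02% of all 14822 genes tested in liver were called, 1.94% as higher and 4.08% as lower (288 and 605 genes, against 216 and 766 without TMM scaling). The median log2 fold change was 0.99 over the 19 synthesis genes and -0.46 over the 8 other genes tested, against 0.00 over all genes tested. Labelled knockout lay above wild type in all pairs of libraries for 6 of the genes, while 2.42% of all genes did so, and below for 3, while 4.53% of all genes did so. These are 9 genes without overlap in either direction, as were 6.95% of all genes.

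**Figure D1:**
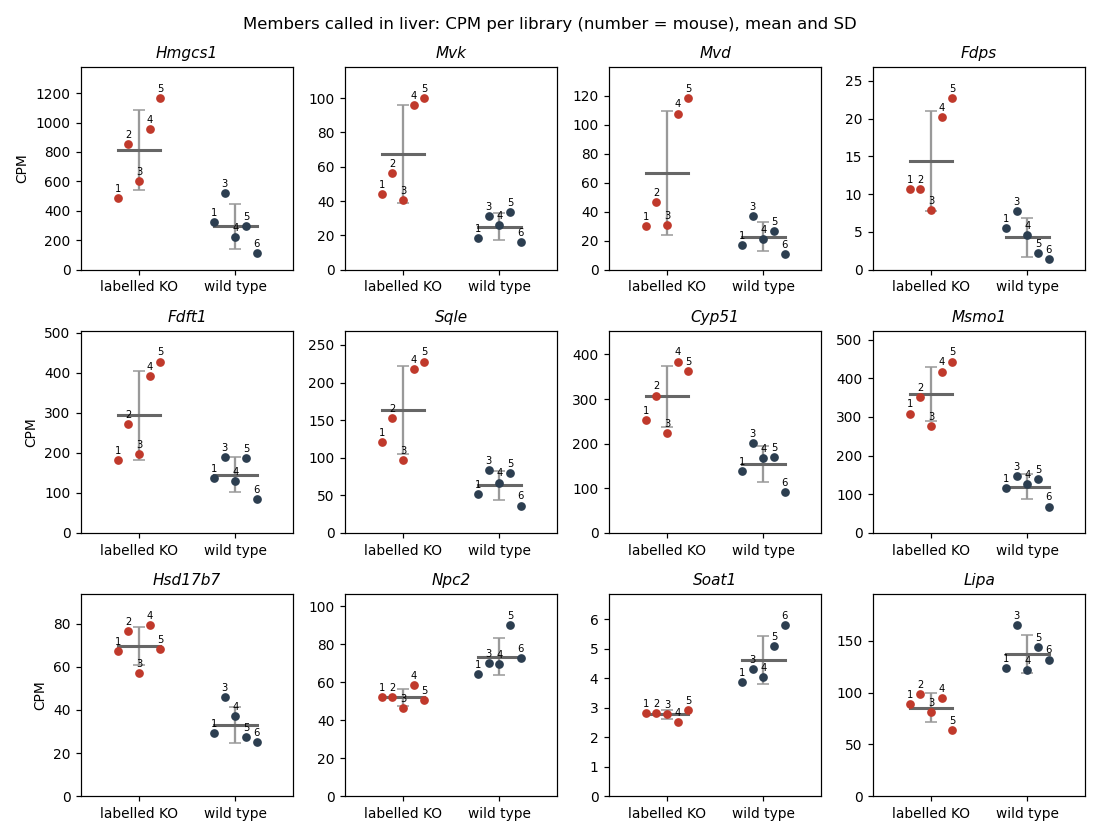
CPM of the 12 called genes in each liver (vertical axes start at 0), labelled knockout on the left and wild type on the right, with the mouse number at each point and the mean and SD as lines. Labelled knockout livers 4 and 5 are the highest points for 8 of the 9 enzymes that were higher, and for Npc2, Soat1 and Lipa the groups do not overlap.

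Among the enzymes up to the prenyl diphosphates, 4 of 8 were higher. Hmgcs1 (ENSMUSG00000093930, mm10 chr13:119690379-119708260, plus strand), which encodes the cytosolic HMG-CoA synthase, had 484, 852, 601, 956 and 1165 CPM in labelled knockout livers 1 to 5, against 322, 520, 221, 294 and 112 CPM in wild-type livers 1, 3, 4, 5 and 6. Its log2 fold change was 1.47 (SE 0.35, edgeR adjusted p = 0.0263), a 2.76-fold difference. Labelled knockout liver 1 lay below wild-type liver 3, so the groups overlapped. Mvk, the mevalonate kinase, had 44.1, 56.4, 40.7, 95.8 and 99.9 CPM in labelled knockout livers and 18.4, 31.3, 25.8, 33.7 and 16.2 CPM in wild-type livers. The 2 groups were apart in every library, with a log2 fold change of 1.43 (SE 0.29, edgeR adjusted p = 0.0106).

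Mvd, which decarboxylates mevalonate diphosphate, stood close to the threshold. It had 30.0, 46.4, 31.0, 108 and 118 CPM in labelled knockout livers, against 17.2, 37.2, 21.1, 26.7 and 10.9 CPM in wild-type livers (1.56, SE 0.43, edgeR adjusted p = 0.0480). Its labelled knockout values fell into a low run of mice 1 to 3 and a high pair of mice 4 and 5, and the low run overlapped with wild type. Fdps, the farnesyl diphosphate synthase, had 10.7, 10.6, 7.85, 20.2 and 22.7 CPM in labelled knockout livers and 5.51, 7.72, 4.53, 2.14 and 1.41 CPM in wild-type livers, with no overlap (1.77, SE 0.43, edgeR adjusted p = 0.0271). Its log2 fold change was the largest of the 28 genes, but its level is uncertain. The annotated gene Gm43738 covers 7512 bases of Fdps on the same strand with at most 3 counts in any library, and how reads shared between them were assigned is not given in the sources used here.

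The 4 early enzymes that were not called did not move as a block. Idi1, the isopentenyl diphosphate isomerase, averaged 74.0 ± 29.5 CPM in labelled knockout livers and 36.0 ± 15.5 CPM in wild-type livers (SD, n = 5 each), and its log2 fold change of 1.04 missed the threshold (SE 0.33, edgeR adjusted p = 0.0896). The other 3 lay near 0. Acat2, the cytosolic acetoacetyl-CoA thiolase (a symbol also used for the enzyme that Soat2 encodes), was at -0.10, Pmvk, the phosphomevalonate kinase, at 0.03, and Ggps1, which makes geranylgeranyl diphosphate, at -0.05.

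From squalene onwards, 5 of 11 enzymes were higher. Msmo1 (ENSMUSG00000031604, mm10 chr8:64718139-64733792, minus strand), the oxidase that starts removal of the methyl groups at carbon 4 of the sterol ring, had 309, 352, 276, 417 and 443 CPM in labelled knockout livers and 115, 148, 127, 140 and 68.1 CPM in wild-type livers. This was a 3.00-fold difference (1.59, SE 0.21, edgeR adjusted p = 0.000745) with a wide gap between the groups. Hsd17b7 (ENSMUSG00000026675, mm10 chr1:169949535-169969241, minus strand), the keto reductase that completes the same demethylation, had 67.1, 76.6, 57.1, 79.4 and 68.1 CPM in labelled knockout livers, against 29.4, 45.8, 37.1, 27.6 and 24.9 CPM in wild-type livers. It was the enzyme of the 9 in which labelled knockout livers 4 and 5 were not the 2 highest (1.08, SE 0.16, edgeR adjusted p = 0.00191).

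Sqle, the squalene epoxidase, had 121, 153, 96.3, 218 and 228 CPM in labelled knockout livers and 52.2, 83.0, 66.9, 79.3 and 36.3 CPM in wild-type livers (1.36, SE 0.27, edgeR adjusted p = 0.00975). Cyp51, the lanosterol demethylase, had 253, 308, 224, 384 and 363 CPM in labelled knockout livers and 139, 202, 168, 170 and 92.0 CPM in wild-type livers (0.99, SE 0.21, edgeR adjusted p = 0.0143). Neither enzyme overlapped between the groups. Fdft1, the squalene synthase, did overlap, with 182, 272, 198, 391 and 428 CPM in labelled knockout livers and 137, 188, 129, 187 and 84.7 CPM in wild-type livers (1.02, SE 0.27, edgeR adjusted p = 0.0443). Fdft1 shares 774 bases with Ctsb on the opposite strand, and Ctsb itself was at -0.42 in liver (edgeR adjusted p = 0.0606). Cyp51 shares 166 bases with Akap9 in the same way. Whether counting used the strand is not given in the sources used here, so reads in those stretches cannot be assigned with certainty.

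The other 6 enzymes of the sterol steps were not called. Lss, the lanosterol synthase, was at 0.63 (edgeR adjusted p = 0.195), Nsdhl, a dehydrogenase of the demethylation complex, at 0.63 (0.157), and Dhcr7, which reduces the sterol B ring late in the pathway, at 0.65 (0.151). For each of the 3 the mean was higher in labelled knockout livers, with mice 4 and 5 on top. Tm7sf2, a sterol reductase, was at 0.01, and Ebp, the sterol isomerase, at -0.05. Sc5d, the sterol desaturase, had the lowest value of the 19 synthesis genes, at -0.36 (edgeR adjusted p = 0.183), with 463 ± 68.6 CPM in labelled knockout livers and 593 ± 85.7 CPM in wild-type livers (SD, n = 5 each). Tm7sf2 shares 9356 bases with Vps51 on the same strand, which makes its counts uncertain as well.

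**Figure D2:**
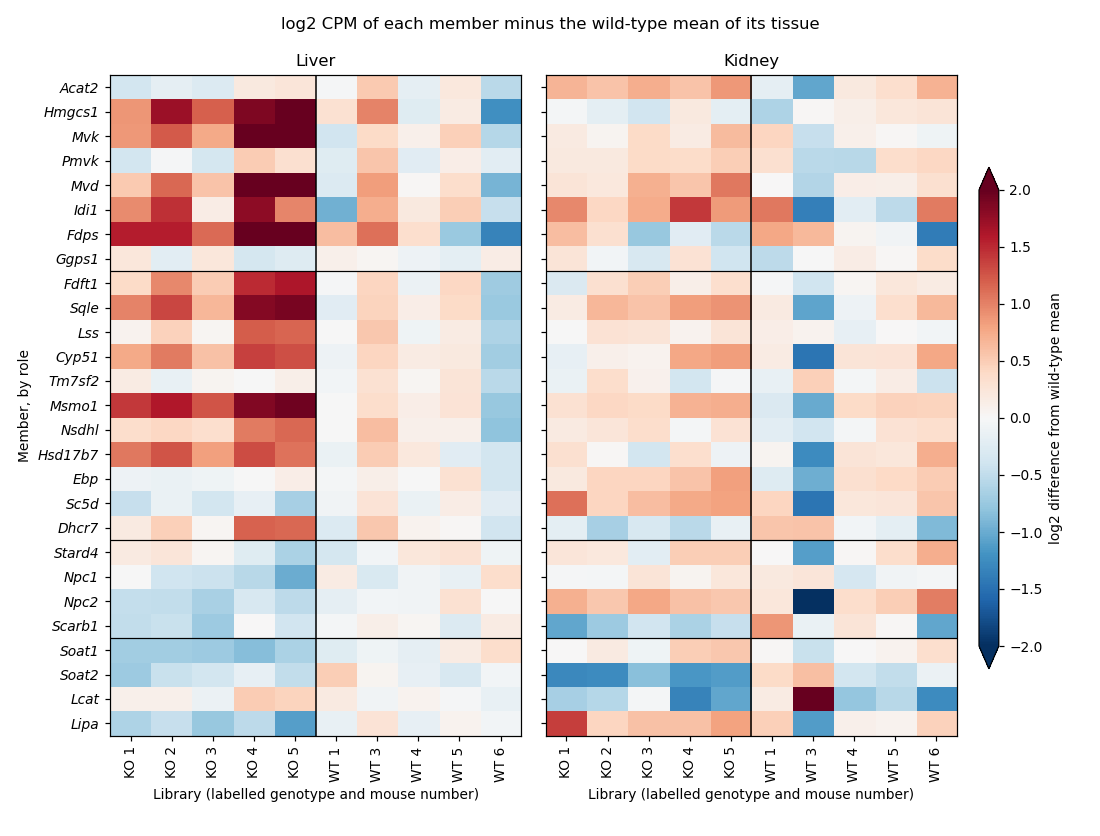
Each cell is the log2 CPM of a gene in 1 library minus the wild-type mean of that tissue, with livers on the left and kidneys on the right, labelled knockout before wild type, and genes ordered by role from the mevalonate steps down to the ester enzymes. The colour scale stops at 2 in both directions, and labelled knockout livers 4 and 5 and wild-type kidney 3 stand out as columns.

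The size of the difference in synthesis genes varied between animals. Averaged over the 19 synthesis genes, the log2 difference from the wild-type mean was 0.48, 0.73, 0.38, 1.16 and 1.13 in labelled knockout livers 1 to 5. In wild-type livers 1, 3, 4, 5 and 6 it was -0.09, 0.51, 0.02, 0.16 and -0.60. Labelled knockout livers 4 and 5 were thus well above the rest, and wild-type liver 3 lay within the range of labelled knockout livers 1 to 3. Without labelled knockout livers 4 and 5, 3 genes were called higher (Mvk, Msmo1 and Hsd17b7) and 3 lower (Npc2, Lipa and Scarb1). The number called higher was 5 when labelled knockout liver 4, labelled knockout liver 5, wild-type liver 4 or wild-type liver 5 alone was left out, and the same 4 genes (Hmgcs1, Mvd, Fdps and Fdft1) were lost in each of these fits.

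**Figure D3:**
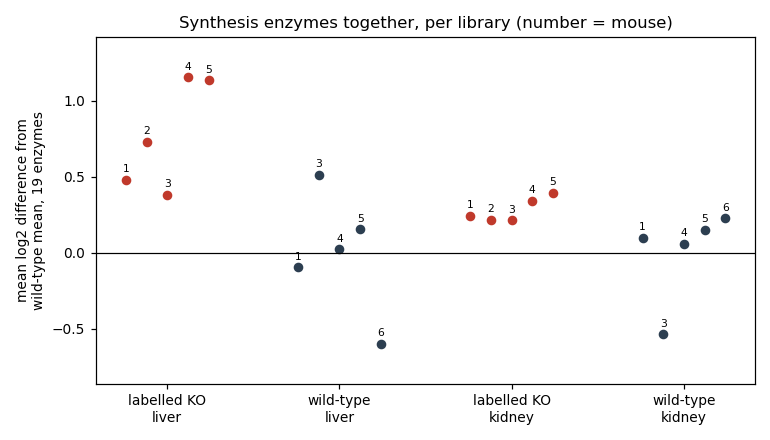
Mean log2 difference from the wild-type mean of the tissue over the 19 synthesis genes, 1 point per library with its mouse number, for labelled knockout liver, wild-type liver, labelled knockout kidney and wild-type kidney. Labelled knockout livers reach 1.16, and wild-type kidney 3 lies at -0.54.

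Of the 5 transport and uptake genes, 1 was called in liver and 1 was not tested. Npc2 (ENSMUSG00000021242, mm10 chr12:84754562-84773152, minus strand), the soluble lysosomal protein that hands cholesterol to NPC1, had 52.2, 52.0, 46.6, 58.6 and 50.6 CPM in labelled knockout livers and 64.5, 70.1, 69.7, 90.1 and 72.8 CPM in wild-type livers. It fell by 0.50 on the log2 scale (SE 0.11, edgeR adjusted p = 0.0186), and no labelled knockout liver reached the wild-type range. Npc1, the membrane partner of NPC2, was at -0.46 (edgeR adjusted p = 0.156), and Scarb1, the HDL receptor, at -0.39 (edgeR adjusted p = 0.130). Stard4, which carries sterol between membranes, was at -0.07.

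Both ester enzymes that were called in liver were lower. Soat1 (ENSMUSG00000026600, mm10 chr1:156424525-156474331, minus strand), the acyltransferase that esterifies cholesterol in most cell types including macrophages, had 2.81, 2.81, 2.77, 2.52 and 2.93 CPM in labelled knockout livers, against 3.88, 4.30, 4.04, 5.10 and 5.80 CPM in wild-type livers (-0.74, SE 0.16, edgeR adjusted p = 0.0149). Lipa (ENSMUSG00000024781, mm10 chr19:34492318-34527474, minus strand), the lysosomal acid lipase that cleaves cholesteryl esters, had 89.3, 98.9, 80.9, 94.4 and 63.4 CPM in labelled knockout livers and 123, 165, 121, 144 and 132 CPM in wild-type livers (-0.68, SE 0.14, edgeR adjusted p = 0.0111). Neither overlapped between the groups, and the Soat1 values of the labelled knockout livers lay within a narrow band. Soat2, the acyltransferase of hepatocytes and enterocytes, averaged 39.5 ± 5.58 CPM in labelled knockout livers and 54.2 ± 12.5 CPM in wild-type livers (SD, n = 5 each) and was not called (-0.45, SE 0.15, edgeR adjusted p = 0.110). Lcat, which the liver secretes to esterify cholesterol on HDL, was at 0.22 (edgeR adjusted p = 0.405). Without wild-type liver 6 only Lipa of the 3 lower genes was called, with Npc2 at an adjusted p of 0.0550 and Soat1 at 0.0532 by edgeR's quasi-likelihood test.

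Most Kupffer cell markers, and fewer markers of other cells, were also lower in labelled knockout livers. Of 5 Kupffer cell markers (the resident liver macrophages), 4 were lower, and their summed level was 49.9 to 120 CPM in labelled knockout livers and 193 to 310 CPM in wild-type livers. None of the 5 was at 0 in all libraries of a liver group, and Cd5l, itself a known LXR target, was the lowest at a mean of 0.240 CPM in labelled knockout livers against 90.7 CPM in wild-type livers. Of 5 leukocyte markers 2 were lower, with sums of 11.2 to 15.6 CPM in labelled knockout livers and 18.4 to 22.2 CPM in wild-type livers. Of 5 endothelial markers 1 was lower, with sums of 31.3 to 89.4 CPM in labelled knockout livers and 61.5 to 98.6 CPM in wild-type livers. Of 5 hepatocyte markers Alb was lower (-0.75, edgeR adjusted p = 0.0435), Oat was higher among 5 pericentral markers, and none of 5 periportal markers was called. Their part in the results for Npc2, Soat1, Lipa and the synthesis genes was not tested. In whole tissue, fewer cells of a type and less RNA per cell cannot be told apart.

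Genes around the pathway were followed in 4 lists with 27 genes. In liver 2 were higher and 4 lower, which is 22.2% of the 27, while 6.02% of all genes tested there were called, 1.94% as higher and 4.08% as lower. Srebf2, which encodes SREBP-2, averaged 80.3 ± 26.9 CPM in labelled knockout livers and 46.8 ± 8.49 CPM in wild-type livers (SD, n = 5 each), higher by 0.78 (SE 0.21, edgeR adjusted p = 0.0466). Srebf1, the related factor of fatty acid synthesis and a known LXR target, averaged 158 ± 15.9 CPM in labelled knockout livers and 355 ± 151 CPM in wild-type livers (-1.17, SE 0.25, edgeR adjusted p = 0.0162). The other 5 genes of SREBP control, Scap, Insig1, Insig2, Mbtps1 and Mbtps2, were not called. Without labelled knockout livers 4 and 5, neither Srebf2 (0.41, edgeR adjusted p = 0.221) nor Srebf1 (-1.16, edgeR adjusted p = 0.0728) was called. Srebf2 was also lost without labelled knockout liver 2, 4 or 5 alone and without wild-type liver 1, 4, 5 or 6 alone. Of the 10 alternatives other than leaving out 1 library, it was lost in 6.

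Both enzymes that supply cytosolic acetyl-CoA, Acss2 and Acly, were lower in labelled knockout livers. Acss2, the acetyl-CoA synthetase, averaged 116 ± 16.9 CPM in labelled knockout livers and 286 ± 134 CPM in wild-type livers (SD, n = 5 each), with no overlap (-1.30, SE 0.25, edgeR adjusted p = 0.00853). Acly, the ATP citrate lyase, averaged 123 ± 19.4 CPM in labelled knockout livers and 291 ± 108 CPM in wild-type livers (-1.24, SE 0.27, edgeR adjusted p = 0.0153). Acat1, the mitochondrial acetoacetyl-CoA thiolase, and Aacs, which makes acetoacetyl-CoA from acetoacetate, complete the list of 4 genes and were not called. None of the 8 genes of the dolichol, ubiquinone and prenylation branches was called, with log2 fold changes between -0.25 and 0.30. Of 8 further genes of sterol handling inside cells, Gramd1c, a sterol transfer protein of the endoplasmic reticulum, was higher (0.61, SE 0.13, edgeR adjusted p = 0.0150) and Stard5, a cytosolic sterol carrier, lower (-0.45, SE 0.12, edgeR adjusted p = 0.0354). Stard5 was called without labelled knockout liver 1 but not without any 1 of the other 9 livers.

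In kidney no gene of the 28 was called, while 2.26% of all 16500 genes tested were, 0.394% as higher and 1.87% as lower. Those 65 and 308 genes numbered 24 to 169 and 75 to 752 when 1 kidney was left out, with 24 and 75 without labelled knockout kidney 4 and 169 and 752 without wild-type kidney 6. In none of these 10 fits was a gene of the 28 called higher, and at most 1 was called lower. An unadjusted p under 0.05 was reached by 5 of the 27 tested, DESeq2 called 0, and limma voom with quality weights called 3 (Idi1 and Lipa higher, Scarb1 lower). Log2 fold changes ran from -1.33 for Lcat to 0.70 for Lipa, with a median of 0.20 against -0.07 over all genes tested. Soat2 was the gene whose groups did not overlap, with 0.240, 0.244, 0.333, 0.264 and 0.270 CPM in labelled knockout kidneys and 0.787, 0.915, 0.463, 0.424 and 0.553 CPM in wild-type kidneys, and 4.13% of all genes lay below wild type in the same way, 2.79% above and 6.92% in either direction. Those values rest on 7 to 9 counts per library in labelled knockout kidneys and 12 to 33 in wild-type kidneys, and the difference was not called (-1.20, SE 0.34, edgeR adjusted p = 0.0883). With all 20 libraries in 1 fit, Soat2 was called (-1.16, edgeR adjusted p = 0.0128). Scarb1, at -0.76 (edgeR adjusted p = 0.182), was called when wild-type kidney 6 was left out (-0.95, edgeR adjusted p = 0.0383).

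The enzymes that were higher in liver showed no common direction in kidney. Hmgcs1 averaged 457 ± 69.9 CPM in labelled knockout kidneys and 506 ± 109 CPM in wild-type kidneys (SD, n = 5 each), at a log2 fold change of -0.15. Msmo1 was at 0.42, Sqle at 0.54, Mvd at 0.56, Mvk at 0.26, Cyp51 at 0.22, Fdft1 at 0.20, Hsd17b7 at -0.07 and Fdps at -0.19. Over the 19 synthesis genes the mean log2 difference from wild type was between 0.21 and 0.39 in the 5 labelled knockout kidneys. In wild-type kidneys it was 0.06 to 0.23 apart from wild-type kidney 3, at -0.54. That library, with the high mitochondrial share, was the lowest wild-type kidney for Cyp51 (66.6 CPM), Sqle (18.3 CPM), Sc5d (10.1 CPM) and Npc2 (21.6 CPM), and the highest for Lcat (6.72 CPM). Without wild-type kidney 3 alone Lcat was at -0.13. Without wild-type kidneys 1 and 3 Lcat turned to 0.17, Npc2 to -0.03, Cyp51 to -0.07 and Fdps to 0.33, and again no gene was called. The part of RNA quality in these values was not tested. Markers of the adrenal cortex, which lies on the kidney and makes steroids from cholesterol, summed to 5.91 to 7.82 CPM in labelled knockout kidneys and 7.40 to 9.47 CPM in wild-type kidneys. Most of each sum was Star (means of 4.46 and 4.19 CPM) and Akr1b7 (2.39 and 3.85 CPM), and neither was called. Star also averaged 1.88 CPM in wild-type livers. Cyp11a1, Cyp21a1, Hsd3b1 and Mc2r had at most 3 counts in a kidney, and Cyp11b1, Cyp11b2 and Nr5a1 were at 0 in every kidney.

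**Figure D4:**
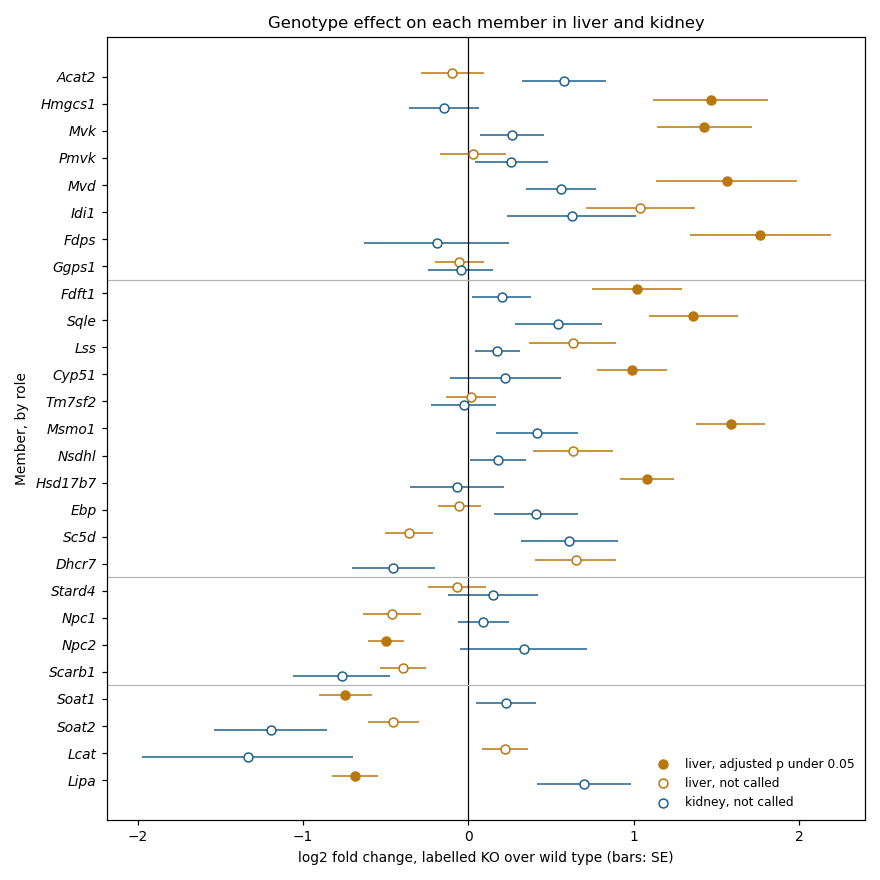
Log2 fold change of labelled knockout over wild type with its SE for the 27 genes tested, in liver (orange, filled where the edgeR adjusted p was under 0.05) and kidney (blue, none called). The 9 filled points to the right of 0 are synthesis enzymes, the 3 filled points to the left are Npc2, Soat1 and Lipa, and kidney values lie between -1.33 and 0.70.

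The difference between the tissues was tested directly, as the effect in kidney minus the effect in liver. The main fit had no term for the mouse, so the liver and the kidney of a mouse entered as independent libraries. Of the 27 genes 2 passed, Soat1 at 0.99 (SE 0.24, edgeR adjusted p = 0.0383) and Lipa at 1.40 (SE 0.33, edgeR adjusted p = 0.0354), while 1.51% of all 17606 genes were called, 0.937% as higher and 0.568% as lower. Both were lower in labelled knockout livers and had values above 0 in kidney, 0.23 for Soat1 and 0.70 for Lipa. In kidney, Lipa had 278, 143, 160, 160 and 186 CPM in labelled knockout libraries 1 to 5 and 148, 49.3, 115, 112 and 147 CPM in wild-type libraries 1, 3, 4, 5 and 6. With the mouse as a block neither was called, at 0.98 for Soat1 (edgeR adjusted p = 0.0589) and 1.45 for Lipa (edgeR adjusted p = 0.0913). Neither was called when any of labelled knockout kidneys 4 and 5, wild-type kidneys 4 and 5, labelled knockout livers 1, 3 and 5 or wild-type livers 5 and 6 was left out. A single call was left without labelled knockout kidney 1 or 2, wild-type kidney 1, labelled knockout liver 2 or 4, or wild-type liver 3.

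For the synthesis genes the difference was negative in 14 of 19 and called in none. The largest values were those of Fdps at -1.94 (edgeR adjusted p = 0.155), Hmgcs1 at -1.59 (0.0667), Msmo1 at -1.15 (0.110), Mvk at -1.15 (0.131) and Hsd17b7 at -1.14 (0.114). The effect of genotype on these enzymes in liver was thus not shown to differ from that in kidney. Without wild-type kidneys 1 and 3, Hmgcs1 (-1.76, edgeR adjusted p = 0.0439), Msmo1 (-1.48, 0.00672) and Hsd17b7 (-1.42, 0.00535) were called. Msmo1 and Hsd17b7 were also called without wild-type kidney 3 alone, and Hmgcs1 without labelled knockout liver 1 or wild-type liver 3. Among the genes around the pathway, Acly (1.79, SE 0.41, edgeR adjusted p = 0.0257) and Acss2 (1.63, SE 0.33, edgeR adjusted p = 0.0107) passed the threshold in the main fit. With the mouse as a block neither was called, at 1.85 for Acly (edgeR adjusted p = 0.0922) and 1.55 for Acss2 (edgeR adjusted p = 0.0901), and Acly was also lost without any 1 of labelled knockout kidney 4, wild-type kidneys 4 and 5, labelled knockout liver 5 and wild-type livers 5 and 6.

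Transcript levels of most of these genes differed between wild-type kidney and wild-type liver. Relative to wild-type liver, wild-type kidney was lower for 21 of the 28 genes, higher for 3 and not called for 3, with 1 not tested. Of all 17606 genes tested, 59.5% were called, 26.8% as lower in kidney and 32.6% as higher (4727 and 5740 genes, against 2474 and 9871 without TMM scaling). Without TMM scaling 18 of the 28 genes were lower and 4 higher, with Acat2, Sqle and Lipa no longer called and Hmgcs1 called as higher in kidney. The median log2 ratio of kidney to liver was -2.02 over the 27 genes and 0.06 over all genes tested. Levels are compared between genes as FPKM, which are counts scaled by library size and gene length.

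Lcat and Soat2 had the lowest kidney-to-liver ratios of the 27 genes tested. Lcat averaged 1.19 ± 1.51 FPKM in wild-type kidneys and 262 ± 25.0 FPKM in wild-type livers (SD, n = 5 each), a log2 ratio of -7.85 (SE 0.56, edgeR adjusted p = 2.85e-11). Without wild-type kidney 3 its ratio was -8.92 (SE 0.31). Soat2 averaged 0.225 ± 0.0742 FPKM in wild-type kidneys and 30.3 ± 7.11 FPKM in wild-type livers (-7.08, SE 0.23, edgeR adjusted p = 4.20e-17). Sc5d at -4.91, Scarb1 at -4.50 and Tm7sf2 at -4.22 followed. Soat1 was the ester-forming gene with the opposite pattern, at 1.66 ± 0.332 FPKM in wild-type kidneys and 0.585 ± 0.101 FPKM in wild-type livers (1.50, SE 0.17, edgeR adjusted p = 7.76e-08). The 2 acyltransferase genes thus divided between the tissues.

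Hmgcs1, Cyp51 and Npc2 were the 3 genes not called between the tissues in the main fit. Npc2 was called as higher in kidney when wild-type kidneys 1 and 3 were left out. Hmgcs1 had the highest level of the 28 genes in wild-type kidneys, at 87.4 ± 18.6 FPKM, and stood at 79.4 ± 40.3 FPKM in wild-type livers (0.14, edgeR adjusted p = 0.714). Cyp51 averaged 37.0 ± 16.1 FPKM in wild-type kidneys and 43.3 ± 11.6 FPKM in wild-type livers (-0.23, edgeR adjusted p = 0.542), and Npc2 was at a log2 ratio of 0.01. Mvd (0.84, edgeR adjusted p = 0.0485) and Ggps1 (0.55, edgeR adjusted p = 0.00849) were higher in wild-type kidneys. Mvd was called without wild-type kidney 3 or wild-type liver 3 but not without any 1 of the other 8 wild-type libraries. In wild-type livers the highest levels were those of Lcat, Ebp (154 FPKM) and Sc5d (151 FPKM), and the lowest those of Npc1l1 (0.0408 FPKM), Soat1 and Fdps (1.25 FPKM). Fdps was at 0.0947 FPKM in wild-type kidneys (-3.71), with the doubt on its counts given above.

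**Figure D5:**
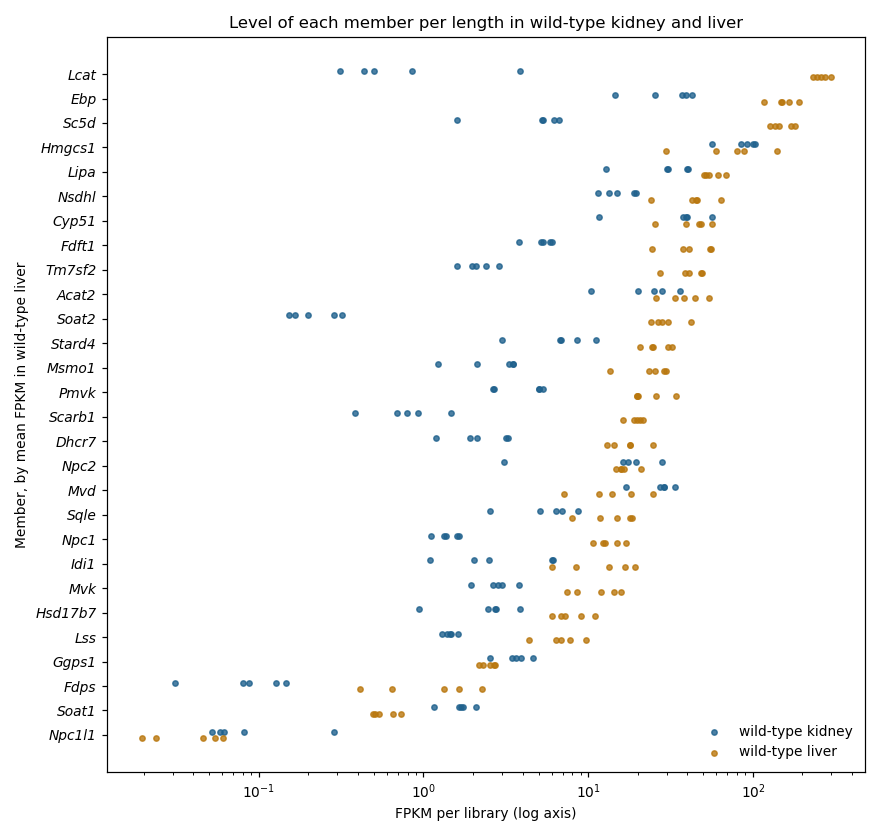
FPKM of each of the 28 genes in the 5 wild-type kidneys (blue, upper line of each pair) and the 5 wild-type livers (orange, lower line), on a log axis, ordered by the mean in wild-type liver. The kidney points lie left of the liver points for most genes and to the right for Soat1. The ranges overlap for Acat2, Hmgcs1, Mvd, Idi1, Ggps1, Sqle, Cyp51, Npc2 and Npc1l1.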

How the data were processed

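Whole-tissue RNA of 10 livers and 10 kidneys was measured. Libraries were made from Trizol-extracted total RNA with a NEBNext Ultra kit, per the labels. HISAT2 2.0.5, StringTie, DESeq2 1.16.1 and build mm10 are named per the submitters' processing notes, with no role or order, and the counting tool and the use of strand are not given in the sources used here. The deposited table holds raw counts per gene, as whole numbers made by the authors, for 54532 genes, of which 20087 had no count in any library. The second deposited table, with log2 FPKM of 15454 genes by the authors, served in 1 alternative. Total counts ran from 23421561 to 35376342 per library. In the fits of a single tissue, p-values measure the spread between the animals as labelled. In fits of both tissues without a term for the mouse they measure the spread between libraries, with the liver and kidney of a mouse taken as independent.

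Genes were filtered with filterByExpr (minimum count 10), scaled by TMM and tested with the quasi-likelihood F test of edgeR 4.0.16 in R 4.3.3, with Benjamini-Hochberg adjustment over all genes tested and calls at an adjusted p under 0.05. Liver and kidney were each fitted on their 10 libraries. The difference between tissues and the comparison of wild-type tissues came from 1 fit of all 20 libraries in which each group had its own mean. That fit had no term for the mouse. SE is the log2 fold change divided by the square root of the F statistic. FPKM were computed from the counts, the table's gene lengths and TMM factors over 20 libraries, and the heat map added 0.01 to CPM. The steps were tested on simulated data with known changes. Alternatives used DESeq2 1.42.0 and limma 3.58.1, other scalings and filters, the deposited log2 FPKM, blocks, and the removal of libraries.

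Members, lists, tests and the libraries left out were chosen with earlier results of these data known. The text names all 28 members, Nr1h3, and the called genes of the pathway lists. Across genotypes, livers or kidneys of equal title number correlated at -0.04 to 0.22 in their deviations from the group means, and nothing in the labels says that they share more than a number. Livers and kidneys of equal genotype and number correlated at -0.19 to 0.45. They entered as 1 mouse only in the fits with the mouse as a block. This was done because the series' design names 5 mice of each genotype for both tissues. Chi-square values per gene between replicates were at least 29.7, so no library was a copy of another. Promoter windows are the 250 bases before RefSeq starts (GRCm38.p6).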

Additional observations from a re-analysis of the deposited data

Results flagged for a closer look

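Among the 28 genes in the 4 groups, which make 112 sets of 5 libraries, 3 sets held a library far from the other 4, and chance gives about 1 in 20 such sets. In all 3 the library was wild-type kidney 3, the library in which mitochondrially encoded genes took 50.8% of the counts. Sc5d was at 10.1 CPM there, with the nearest wild-type kidney at 32.2 CPM. Lcat was at 6.72 CPM there, with the nearest at 1.41 CPM, and Npc1l1 at 1.67 CPM, with the nearest at 0.454 CPM. The part of RNA quality in these values was not tested.

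The effect of genotype in kidney minus that in liver passed the threshold for Soat1, the acyltransferase found in most cells, at 0.99 on the log2 scale (edgeR adjusted p = 0.0383), and for Lipa, the lysosomal acid lipase, at 1.40 (edgeR adjusted p = 0.0354). Neither call held with the mouse as a block (edgeR adjusted p = 0.0589 for Soat1 and 0.0913 for Lipa). With 1 library left out, Soat1 was lost in 13 of 20 fits and Lipa in 11 of 20, both of them in 9. Each kept a value above 0 in all 20. Of 5 Kupffer cell markers, 4 were lower in labelled knockout livers, and Marco was not called (-0.92, edgeR adjusted p = 0.189). Their sum was 49.9 to 120 CPM there and 193 to 310 CPM in wild-type livers. Cd5l, itself a known LXR target, had a mean of 0.240 CPM against 90.7 CPM in wild-type livers. In no kidney did these markers sum to more than 0.119 CPM. In labelled knockout kidneys 1 of 5 leukocyte markers (Cd3g) and 1 of 5 endothelial markers (Cdh5) were lower. The other markers of both lists were not called in kidney. The part of all these markers in the Soat1 and Lipa results was not tested.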

How the results depend on the processing

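In liver the 9 genes called higher numbered 5 to 10 and the 3 called lower 1 to 4 when 1 library was left out. When title numbers entered as a replicate block, 3 were called higher and 0 lower, although the numbers are not known to pair the animals. Without labelled knockout livers 4 and 5, 3 were called higher. With all 20 libraries in 1 fit, 1 was called lower. Msmo1, Hsd17b7 and Mvk were called in all 20 alternative fits of the liver comparison, with a largest adjusted p of 0.0496 for Mvk. Mvd was lost in 6 of the 10 alternatives other than leaving out 1 library, and Fdft1 in 4. With 1 library left out, Mvd and Fdft1 were each lost in 7 of 10 fits. DESeq2 called Idi1 as well (edgeR's 1.04 became 1.06, DESeq2 adjusted p = 0.0157). In kidney, leaving out 1 library gave 0 higher and 0 to 1 lower. The calls were 2 higher and 1 lower by limma voom, and 1 lower with all 20 libraries in 1 fit.

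For the difference between the tissues, leaving out 1 library gave 0 to 2 higher and 0 to 2 lower. The number higher was 0 without TMM scaling, 1 by limma-trend on log2 FPKM, 0 with the mouse as a replicate block, 1 without wild-type kidneys 1 and 3 and 0 without labelled knockout livers 4 and 5. The number lower was 2 by DESeq2, 3 by limma voom and 3 without wild-type kidneys 1 and 3. Between wild-type kidney and wild-type liver, 2 to 4 were higher and 20 to 21 lower with 1 library left out. Without TMM scaling 4 were higher and 18 lower. That setting moved the median of all genes there to 0.71, Cyp51 to 0.47, Acat2 to -0.042 (edgeR adjusted p = 0.891), Sqle to -0.57 (0.0982) and Lipa to -0.20 (0.529). Acat2 was also lost without wild-type liver 3 (0.0556) and without wild-type kidneys 1 and 3 (0.0936). Npc2 was called as higher in kidney in the latter fit, where 4 were higher and 20 lower. Over all genes, the liver calls were 288 higher and 605 lower, and 107 and 200 with the title block. They were 189 and 386 without wild-type liver 6, and 538 and 870 by DESeq2. The kidney calls were 65 higher and 308 lower, 306 and 845 by DESeq2, 801 and 1350 by limma voom, 185 and 717 with the title block, and 262 and 686 with all 20 libraries in 1 fit. Without 1 of labelled knockout kidneys 1, 3, 4 and 5 or wild-type kidneys 4 and 5 they numbered 24 to 35 and 75 to 140, without wild-type kidney 3 they were 129 and 301, and without wild-type kidney 6 they were 169 and 752. Depth limited Npc1l1, which had at most 31 counts in a library.

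Genes that changed sign were not called in the main fit of the comparison concerned, and the cause was not tested. In liver Pmvk was at -0.054 without TMM scaling, -0.061 by limma voom, -0.022 with the title block and -0.26 without labelled knockout livers 4 and 5. Tm7sf2 was at -0.059, -0.0038 and -0.049 under the first 3 of these. Ggps1 turned to 0.0038 with the title block and 0.10 without labelled knockout livers 4 and 5, and Stard4 to 0.044 by limma voom and 0.15 without those livers. In kidney Hsd17b7 turned to 0.086 by limma-trend on log2 FPKM and 0.22 with the title block, and without wild-type kidneys 1 and 3 Fdps was at 0.33, Cyp51 at -0.067, Npc2 at -0.029 and Lcat at 0.17. Between wild-type tissues Npc2 was at -0.27 by limma-trend and -0.22 with the mouse as a block, and Cyp51 at 0.062 without wild-type kidneys 1 and 3. Among the log2 values that the report gives singly for the 28 genes, 11 changed sign with 1 library left out. The kidney values not given singly were not counted. In liver Acat2 ran from -0.19 to 0.072, Ebp from -0.12 to 0.026, Ggps1 from -0.13 to 0.014, Pmvk from -0.11 to 0.21, Stard4 from -0.15 to 0.048 and Tm7sf2 from -0.080 to 0.11. In kidney Fdps ran from -0.42 to 0.073 and Hsd17b7 from -0.25 to 0.13. Between wild-type tissues Cyp51 ran from -0.43 to 0.0012, Hmgcs1 from -0.048 to 0.44 and Npc2 from -0.25 to 0.28.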
